A study of Saccharomyces cerevisiae with 6 samples.

Results

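The 56 genes described here encode the cytosolic small-subunit (40S) ribosomal proteins of budding yeast, Saccharomyces cerevisiae. They were chosen as the open reading frames (ORFs) whose symbol starts with RPS and a digit, 56 of the 6679 in the table, and all 56 symbols matched those of the reference annotation. They encode 32 proteins: 8 are made from a single gene (RPS2, RPS3, RPS12, RPS13, RPS15, RPS20 and RPS31 among them) and 24 from a pair of paralogous copies named A and B. Cells of the rapidly sporulating laboratory strain SK1 had grown in YPD, then in BYTA, and were moved to sporulation medium, in which starved diploids enter meiosis. At 5 h either an inducer labelled bEST (the inducer group) or the vehicle, labelled EtOH (the vehicle group), was added, and poly(A) RNA was sequenced at 6, 6.5 and 7 h. These samples were taken 1, 1.5 and 2 h after that point; each treatment has 1 library per hour, which makes 3 inducer and 3 vehicle libraries. The series text describes strong expression of spliced HAC1, the mRNA for the transcription factor of the unfolded protein response, from outside its own control. Genotype is given as WT for all 6 libraries and the construct is not named in the labels. Cells given bEST without driven HAC1 were not analysed here, so an effect of the inducer and an effect of HAC1 cannot be told apart.

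The small subunit binds the mRNA, scans for the start codon and holds the decoding centre, and each 40S particle carries a single molecule of nearly every protein of the family. In growing yeast the family is transcribed in concert, with Rap1, Ifh1, Fhl1 and Sfp1 at the promoters and with the TOR and protein kinase A pathways as inputs, and starvation and defects in secretion are known to lower it. Most pairs stem from the ancient duplication of the yeast genome, and their copies encode the same or nearly the same protein.

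How far a short read can be assigned to a copy depends on how many bases separate the copies. For this reason 4 pairs are shown by the last 150 coding bases of each copy, read from the RefSeq assembly R64 of strain S288C, 5′ to 3′ on the coding strand and ending with the stop codon. Capitals mark the bases that differ between the copies of a pair. RPS6, the target of TOR-dependent phosphorylation, is shown because its copies are the most alike of all pairs over the whole coding sequence; RPS10, RPS26 and RPS23 are shown because their copies went apart between treatments. RPS6A at chrXVI:377291-377440 and RPS6B at chrII:591712-591861, both on the minus strand, differ at 2 bases.
RPS6A: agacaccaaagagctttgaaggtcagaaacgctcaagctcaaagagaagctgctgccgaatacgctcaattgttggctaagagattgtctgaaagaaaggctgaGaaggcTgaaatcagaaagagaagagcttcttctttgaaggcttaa
RPS6B: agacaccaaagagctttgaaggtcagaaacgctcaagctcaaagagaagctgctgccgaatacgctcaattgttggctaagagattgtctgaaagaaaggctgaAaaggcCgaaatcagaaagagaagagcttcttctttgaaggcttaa
RPS10A at chrXV:867703-867852 and RPS10B at chrXIII:732992-733141, both on the plus strand, differ at 8 bases.
RPS10A: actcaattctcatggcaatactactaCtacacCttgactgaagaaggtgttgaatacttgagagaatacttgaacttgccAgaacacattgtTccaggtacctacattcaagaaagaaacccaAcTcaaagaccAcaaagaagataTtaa
RPS10B: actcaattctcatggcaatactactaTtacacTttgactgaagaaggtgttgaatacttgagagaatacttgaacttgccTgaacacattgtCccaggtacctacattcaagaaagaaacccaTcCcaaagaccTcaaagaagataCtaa
RPS26A at chrVII:148229-148378 on the minus strand and RPS26B at chrV:424162-424311 on the plus strand differ at 18 bases.
RPS26A: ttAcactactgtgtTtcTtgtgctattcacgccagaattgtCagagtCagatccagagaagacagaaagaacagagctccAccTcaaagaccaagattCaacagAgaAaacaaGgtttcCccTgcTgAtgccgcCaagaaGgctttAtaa
RPS26B: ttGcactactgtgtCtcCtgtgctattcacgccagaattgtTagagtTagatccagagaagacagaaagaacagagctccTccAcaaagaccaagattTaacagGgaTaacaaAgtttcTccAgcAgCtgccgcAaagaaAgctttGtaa
RPS23A at chrVII:727581-727730 and RPS23B at chrXVI:795618-795767, both on the plus strand, differ at 6 bases.
RPS23A: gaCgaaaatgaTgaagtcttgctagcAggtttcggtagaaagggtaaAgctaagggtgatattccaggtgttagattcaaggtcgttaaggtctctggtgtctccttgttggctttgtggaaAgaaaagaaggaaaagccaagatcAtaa
RPS23B: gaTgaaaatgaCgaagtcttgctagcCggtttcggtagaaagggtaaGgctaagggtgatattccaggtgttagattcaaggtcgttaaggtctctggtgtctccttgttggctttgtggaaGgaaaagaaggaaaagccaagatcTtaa
The cells sequenced were SK1, whose bases can differ from these, and the sources used here do not name the build the authors aligned to.

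Values were RPKM per ORF (reads scaled by kilobases of length and by megareads of the library), and the spacing of the low values gave back the read numbers behind them. These summed to 6.02 to 21.7 megareads per library. The deposited values were 2.90 to 2.93 times what such reads per kilobase of the length used and per recovered megaread would give; the sources used here give no reason, and levels are therefore on the authors' scale. HAC1 stood at 28926 to 53257 RPKM in the inducer libraries, against 98.4 to 128 RPKM in the vehicle libraries, and 14 of 14 listed targets of the unfolded protein response rose with inducer, with a median log2 change of 2.48. Summed RPKM of 15 early meiotic genes was 18691, 10945 and 9714 with inducer at 6, 6.5 and 7 h, against 21480, 17279 and 18500 with vehicle; 9 of the 15 fell. The corresponding sums of 16 middle meiotic genes were 176890, 206580 and 199140 with inducer, against 158370, 175840 and 237340 with vehicle, and 0 of the 16 passed the limma test with Benjamini-Hochberg adjustment (0 also at an unadjusted p under 0.05). Markers of mitotic G1 cells (16 genes) summed to 894 to 1491 RPKM with inducer, against 677 to 775 RPKM with vehicle; 3 rose (18.8%) and 1 fell (6.25%), while the list's median log2 change was near 0. Haploid and mating genes (18) summed to 4382 to 5298 RPKM with inducer and 3810 to 4297 RPKM with vehicle, with 2 higher (11.1%), 1 lower (5.56%) and a median change near 0. Over all ORFs tested, 10.0% rose and 8.35% fell, and 0 genes of these 4 lists had a value of 0 in any library. Their part in the results on ribosomal protein genes was not tested. Fewer cells with such transcripts and less RNA per cell cannot be told apart in bulk RNA.

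The 56 genes spanned a wide range of levels. By mean RPKM over the 6 libraries the highest were RPS28A with 2339.9 and RPS28B with 2305, copies for a small protein at the mRNA exit channel, then RPS30B with 2062 and RPS25A with 2053. RPS28A stood at 2297, 2434 and 2240.1 RPKM with inducer at 6, 6.5 and 7 h, against 3037, 2274 and 1758 RPKM with vehicle. RPS28B had 2723, 1841 and 1562 RPKM with inducer, against 3372, 2498 and 1836 RPKM with vehicle, so both copies overlapped between treatments and their order of levels was not the same in all libraries. RPS30B, whose protein lies near the decoding site, had 2127, 1598 and 1377 RPKM with inducer, against 3084, 2561 and 1628 RPKM with vehicle. Among the lowest were RPS24B with a mean of 92.0 and RPS9A with 122 RPKM. RPS24B, for a body protein, had 96.6, 57.3 and 57.8 RPKM with inducer, against 143, 123 and 74.3 RPKM with vehicle, and was lower with inducer at each hour. Behind each value stood 40 to 4116 reads (median 635), which gives exact 95% Poisson intervals that reach a median of 7.86% to either side of the value and at most 32.4%, for RPS29A in the inducer library of 7 h. These intervals cover counting error only. Copies of a pair were 84.3 to 99.2% identical in coding sequence and 87.9 to 100% in protein, with 9 pairs at 100%.

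Near-identical copies sat low on this scale. The share of 50-base windows of a coding sequence found nowhere else in the R64 genome was 27.9% for both RPS6 copies, 53.2% for RPS4 and 61.8% for RPS24, and 100% for 26 genes. The 8 copies under 65% had a median level of 180.4 RPKM, against 664 RPKM for the 26 fully unique genes. Over the 56 genes Spearman's rho between this share and the level was 0.44, and between coding length and level -0.43 (-0.34 with levels recomputed over the full coding length, since the deposited values divide by the coding length less 60 bp, which raises short genes). Points of a pair share sequence and all points share libraries, so these are descriptions. The sources used here do not say how reads that fit both copies were handled, and its part in the levels was not tested; levels of such copies are uncertain, while RPS10, RPS26, RPS21, RPS22, RPS25, RPS27, RPS28, RPS29 and RPS0 had copies that were unique throughout.

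**Figure D1:**
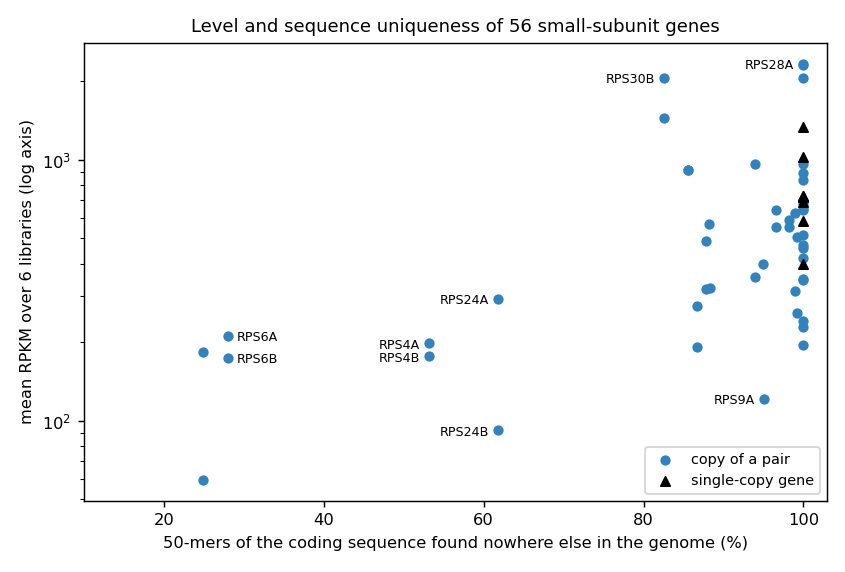
Mean RPKM over the 6 libraries (log axis) against the percentage of 50-base windows of the coding sequence that occur nowhere else in the R64 genome, for 48 copies of pairs (circles) and 8 single-copy genes (triangles). The copies of RPS6, RPS4 and RPS24 lie at 27.9 to 61.8% and have means of 92.0 to 293 RPKM, while genes at 100% reach 2340 RPKM.

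Between inducer and vehicle, transcripts of most small-subunit proteins were lower with inducer. In the limma-trend fit on log2(RPKM + 1) with hour as a factor, 24 of the 56 (42.9%) fell and 1, RPS26B, rose at a Benjamini-Hochberg adjusted p under 0.05; over all 6025 ORFs tested 8.35% fell and 10.0% rose. The median change of the 56 was -0.51 (a fold of 0.701), against -0.08 over all ORFs. Adjusted p-values of the calls lay between 0.0120 and 0.0497 and the calls between -1.08 and -0.51 for the fallers. Of the 31 genes that did not pass, 28 were below 0 and 3 (RPS10B, RPS23A and RPS28A) above 0. With 1 library per treatment and hour, a gene's own spread is how its inducer-minus-vehicle difference varied between hours. In limma-trend this spread is drawn towards one fitted over all ORFs tested, so each p-value rests on both. The spread between hours may be technical or hold real change over the hours, and nothing in the labels speaks of separate cultures.

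The difference was seen in the family's summary values at 6 and 6.5 h and was small at 7 h. Its median RPKM was 556, 384 and 397 with inducer at 6, 6.5 and 7 h, against 746, 602 and 388 with vehicle. Its share of the reads recovered over all ORFs was 0.424%, 0.309% and 0.294% with inducer, against 0.593%, 0.481% and 0.309% with vehicle. The median inducer-minus-vehicle log2 difference was -0.53, -0.78 and -0.23 at the 3 hours, against -0.06, -0.11 and -0.04 for all ORFs. Below 0 were 54 genes at 6 h, 52 at 6.5 h and 40 at 7 h. At all 3 hours 40 genes were lower with inducer (36.9% of all ORFs were) and 2 were higher (23.6% of all ORFs were).

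The number of genes that passed moved with the libraries that entered the fit. With the libraries of 6.5 h left out 0 of the 56 passed as lower in limma (16 at an unadjusted p under 0.05), with those of 7 h left out 1 did, and with those of 6 h left out 19 did; the median change in these fits was -0.36, -0.62 and -0.52. Without pairing by hour 0 passed as lower in limma (18 at an unadjusted p under 0.05), with the same median of -0.51. The counts over all 6025 ORFs moved too, to 196 higher and 22 lower with 6.5 h left out, 76 and 9 with 7 h left out, and 723 and 535 with 6 h left out. Without pairing by hour these counts were 484 higher and 145 lower.

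**Figure D2:**
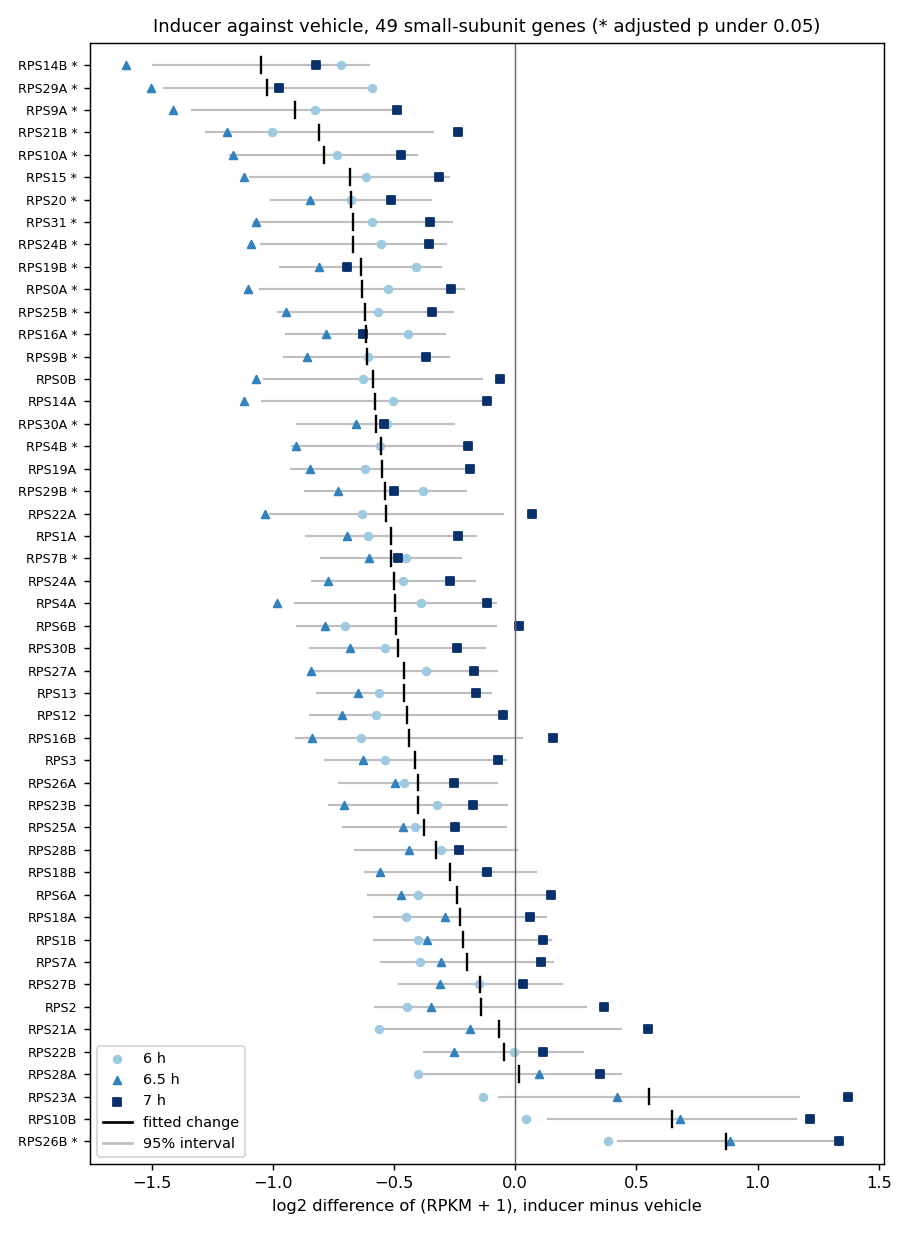
Log2 difference of RPKM + 1, inducer minus vehicle, for 49 of the 56 genes ordered by the fitted change (black tick) with its 95% interval (grey), with the differences at 6, 6.5 and 7 h as points. Asterisks mark the 18 genes called lower and the 1 called higher among those drawn; at 7 h 15 of them lie above 0, against 2 at 6 h.

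Proteins with a single gene are free of the question of which copy a read came from. Of these 8, 4 fell (RPS15, RPS20 and RPS31 among them) and the median was -0.56. RPS31, made as a fusion of ubiquitin with a protein of the beak, had 1508, 856 and 681 RPKM with inducer at 6, 6.5 and 7 h, against 2274, 1797 and 869 RPKM with vehicle, a change of -0.67 ± 0.17 (log2 ± SE; limma adjusted p 0.0381). It was lower with inducer at each hour, and the groups overlapped because the inducer value of 6 h exceeded the vehicle value of 7 h.

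RPS15, a head protein that reaches towards the decoding site, had 408, 243 and 261 RPKM with inducer, against 627, 529.8 and 325 RPKM with vehicle. RPS20, another head protein, had 741, 501 and 408 RPKM with inducer, against 1185, 902 and 583 RPKM with vehicle. Both were lower at each hour, with changes of -0.68 ± 0.17 and -0.68 ± 0.14 (limma adjusted p 0.0361 and 0.0189). A further 4 did not pass. RPS12, of the beak, had 1014, 728 and 842 RPKM with inducer, against 1512, 1197 and 871 RPKM with vehicle (-0.45 ± 0.17, limma adjusted p 0.109). RPS13, of the platform, had 777, 528 and 513 RPKM with inducer, against 1147, 828 and 575 RPKM with vehicle (-0.46 ± 0.15, limma adjusted p 0.0776). Both were lower with inducer at each hour. RPS3, at the mRNA entry channel, had 814, 530.0 and 502 RPKM with inducer, against 1181, 821 and 528 RPKM with vehicle (-0.41 ± 0.16, limma adjusted p 0.110). RPS2, its neighbour at the entry channel, had 614, 498 and 515 RPKM with inducer, against 838, 635 and 399.6 RPKM with vehicle (-0.14 ± 0.19, limma adjusted p 0.617). RPS3 was lower with inducer at each hour; RPS2 was lower at 6 and 6.5 h and higher at 7 h.

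Among the 48 copies of pairs 20 fell, and small p-values belonged to proteins from several regions of the subunit. RPS29A, for a zinc-binding head protein, had 245, 114 and 107 RPKM with inducer, against 369, 325 and 211 RPKM with vehicle (-1.02 ± 0.18, limma adjusted p 0.0123). It was lower with inducer at each hour, and the groups overlapped only through the inducer library of 6 h.

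RPS14B, the lower-expressed copy for a platform protein that is known to hold back splicing of its own precursor, had 367, 146 and 136 RPKM with inducer, against 605, 448 and 241 RPKM with vehicle. It changed by -1.05 ± 0.19 (limma adjusted p 0.0129), while RPS14A had -0.58 ± 0.20 and did not pass (limma adjusted p 0.0836). RPS9A, the low copy for a protein of the body near the mRNA entry, had 121, 61.0 and 69.8 RPKM with inducer, against 216, 164 and 98.3 RPKM with vehicle (-0.91 ± 0.18, limma adjusted p 0.0170). RPS10A, for a head protein close to the mRNA entry, had 477, 291 and 255 RPKM with inducer, against 795, 655 and 354 RPKM with vehicle (-0.79 ± 0.16, limma adjusted p 0.0193). All were lower with inducer at each hour, with the inducer library of 6 h above the vehicle library of 7 h.

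Copies that also fell were RPS19B, RPS16A, RPS9B, RPS30A, RPS7B, RPS24B, RPS21B, RPS25B, RPS29B, RPS4B and RPS0A, with changes between -0.81 for RPS21B and -0.51 for RPS7B.

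A few copies did not follow the family. RPS26B, for a protein that lines the mRNA exit channel and is brought to the ribosome by Tsr2, had 419.6, 464 and 452 RPKM with inducer at 6, 6.5 and 7 h, against 322, 250.4 and 178 RPKM with vehicle. All inducer libraries lay above all vehicle libraries, and the change was 0.87 ± 0.19 (limma adjusted p 0.0222); its limma adjusted p became 0.130 when the libraries of 6.5 h were left out and 0.112 when those of 7 h were. RPS26A, the more abundant copy, had 944, 719 and 620.5 RPKM with inducer, against 1298, 1014 and 739 RPKM with vehicle, and was lower with inducer at each hour (-0.40 ± 0.14, limma adjusted p 0.0851). RPS10B had 625, 876 and 853 RPKM with inducer, against 607, 547 and 367 RPKM with vehicle. Its inducer libraries also all lay above its vehicle libraries, and RPS26B and RPS10B were the 2 such genes of the 56 (17.3% of all ORFs had this pattern). All inducer libraries lay below all vehicle libraries in 1 of the 56, against 14.1% of all ORFs. The fitted change of RPS10B, 0.65 ± 0.22, did not pass (limma adjusted p 0.0804, 95% interval 0.13 to 1.16). It was 0.95 with a limma adjusted p of 0.0108 when the 6 h pair was left out. Without the 6.5 h pair it was 0.63 (limma adjusted p 0.330), and without the 7 h pair 0.36 (limma adjusted p 0.291).

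RPS23A, for the decoding-centre protein uS12, had 917, 1100.0 and 1201 RPKM with inducer, against 1006, 822 and 463 RPKM with vehicle: it was lower with inducer at 6 h and higher at 6.5 and 7 h. Its change of 0.55 ± 0.26 did not pass (limma adjusted p 0.182), and without the 6 h pair it was 0.90 (limma adjusted p 0.0338). Without the 6.5 h pair it was 0.62 (limma adjusted p 0.427), and without the 7 h pair 0.14 (limma adjusted p 0.632). RPS23B had 1032, 709 and 600.5 RPKM with inducer, against 1292, 1159 and 677 RPKM with vehicle, and was lower at each hour (-0.40 ± 0.16, limma adjusted p 0.115). RPS28A had a fitted difference of 0.01 ± 0.18 (95% interval -0.41 to 0.44) and RPS22B of -0.05 ± 0.14 (95% interval -0.37 to 0.28). RPS22B had 446, 440.1 and 469 RPKM with inducer, against 447, 525 and 433 RPKM with vehicle; the annotation places the small nucleolar RNA SNR44 inside the gene, so its reads are uncertain.

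The division of a protein between its copies shows the same divergence in another way. RPS10A made up 43.3%, 25% and 23.0% of the RPKM of RPS10A plus RPS10B with inducer at 6, 6.5 and 7 h, against 56.7%, 54.5% and 49.1% with vehicle. RPS10A was the lower copy in all 3 inducer libraries and in the vehicle library of 7 h, and the difference in log2(A/B) was -1.44. RPS26A made up 69.2%, 60.8% and 57.9% of its pair with inducer, against 80.1%, 80.2% and 80.6% with vehicle, a difference of -1.27. RPS23A made up 47.1%, 60.8% and 66.7% with inducer, against 43.8%, 41.5% and 40.6% with vehicle, a difference of 0.95. In these pairs the inducer and vehicle shares did not overlap, and the gap was wider at 6.5 and 7 h than at 6 h.

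RPS21, a protein that sits beside RPS0 on the body, also differed between its copies: RPS21A made up 56.2%, 67.1% and 69.0% with inducer, against 48.6%, 50.5% and 56.4% with vehicle. RPS21A had 708, 806 and 926 RPKM with inducer, against 1047, 916 and 633 RPKM with vehicle, and RPS21B had 552, 394 and 416 RPKM with inducer, against 1106, 899 and 490.0 RPKM with vehicle. RPS21B fell (-0.81 ± 0.20, limma adjusted p 0.0328) and RPS21A had a change of -0.07 ± 0.22 (limma adjusted p 0.850). The pair's difference in log2(A/B) was 0.74, with shares that overlapped. Differences beyond 0.5 in size were found in 5 of the 24 pairs (RPS10, RPS26, RPS23 and RPS21 among them), and the median size over the 24 was 0.30. Shares did not overlap between treatments in 8 pairs (RPS10, RPS26, RPS23, RPS9, RPS1 and RPS7 among them), which is 33.3% of the 24, against 9 of 33 large-subunit pairs (27.3%). An exact two-sided permutation test of 3 against 3 libraries cannot go below 0.1, and with Benjamini-Hochberg adjustment over the 24 pairs the smallest value was 0.3, so no pair could pass.

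**Figure D3:**
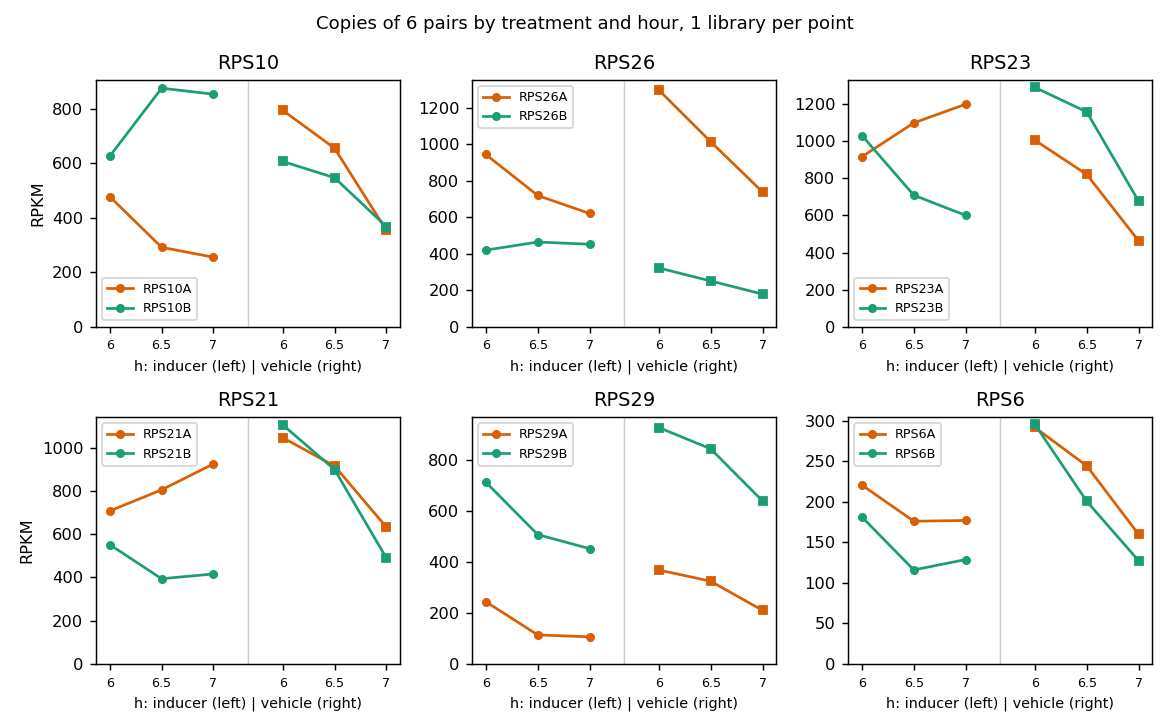
RPKM of the copies of 6 pairs (A in orange, B in green) at 6, 6.5 and 7 h in sporulation medium, with the inducer libraries left of the vertical line and the vehicle libraries right of it, 1 library per point. RPS10B, RPS26B, RPS23A and RPS21A do not show the decline of the other copy with inducer (RPS10B stays at 625 to 876 RPKM, RPS10A drops to 255 RPKM), whereas both copies of RPS29 are at their lowest with inducer at 7 h.

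In several pairs the copies were unequal in level. RPS25A, for a head protein, exceeded RPS25B 5.92-fold (geometric mean of the 6 ratios), and the pair's log2(A/B) differed by 0.24 between inducer and vehicle. The higher copy exceeded the lower 3.38-fold in RPS9 (B over A), 3.24-fold in RPS24 (A over B), and 3.2-fold in RPS29 (B over A). RPS9B had 430.1, 256 and 255 RPKM with inducer, against 656, 465 and 329.7 RPKM with vehicle, and RPS29B had 714, 508 and 453 RPKM with inducer, against 929, 846 and 641 RPKM with vehicle. Both were lower with inducer at each hour, as was RPS24A with 299.7, 226 and 196 RPKM, against 413, 387 and 237 RPKM with vehicle. RPS25A had 2162, 1771 and 1401 RPKM with inducer, against 2878, 2439.9 and 1666 RPKM with vehicle. RPS25B had 339.7, 222 and 263 RPKM with inducer, against 504, 429 and 333 RPKM with vehicle. RPS25B fell, while RPS25A did not pass (-0.37 ± 0.14, limma adjusted p 0.108). Both copies fell in 4 pairs, RPS9 and RPS29 among them, and in 12 pairs exactly 1 copy passed as lower. In 20 pairs both fitted changes were below 0. A single passing copy need not mean that the copies differed. RPS0A passed with -0.63 (limma adjusted p 0.0497), while RPS0B did not with -0.59 (limma adjusted p 0.0727).

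Summing the copies removes the question of which copy a read was assigned to. Fitted as single features in the whole table, 9 of the 24 pairs fell (RPS14, RPS9, RPS29, RPS19, RPS16, RPS24 and RPS30 among them) and 0 rose, against 8.35% lower and 10.1% higher among 6001 features; the median of the 24 was -0.39. RPS14 as a sum changed by -0.73 ± 0.20 (limma adjusted p 0.0431) and RPS9 by -0.68 ± 0.16 (limma adjusted p 0.0260). The fitted changes of the sums of 3 divergent pairs were near 0: RPS26 at -0.04 ± 0.15 (95% interval -0.40 to 0.32), RPS10 at 0.08 ± 0.20 (-0.39 to 0.55) and RPS23 at 0.10 ± 0.20 (-0.37 to 0.57). That of RPS21 was -0.37 ± 0.21 (-0.87 to 0.13). These intervals do not show that the summed transcripts were equal. The sums of RPS26, RPS10 and RPS23 were lower with inducer at 6 and 6.5 h and higher at 7 h, so their fitted changes average opposite differences. RPS10 had 1103 RPKM with inducer against 1401 RPKM with vehicle at 6 h, and 1108 against 721 RPKM at 7 h. Leaving out the libraries of 6.5 h or of 7 h left 0 sums lower in limma (3 and 17 at an unadjusted p under 0.05), and leaving out those of 6 h left 6.

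Over the sampled hours most small-subunit transcripts were lower at the later hours in both treatments. With treatment as a term, the change per hour had a median of -0.79 over the 56 genes, against -0.15 over all ORFs. The family thus stood -0.64 from the general shift, and 55 of 56 were below 0, against 4212 of the 6025 ORFs. At the threshold 6 genes fell and 0 rose in limma (50 and 0 at an unadjusted p under 0.05), against 0.415% lower and 0.249% higher among all ORFs (25 and 15 of 6025). RPS14B changed by -1.38 ± 0.23 per hour, RPS31 by -1.27 ± 0.19, RPS19B by -1.01 ± 0.16, RPS16A by -1.0 ± 0.15, RPS20 by -0.94 ± 0.15 and RPS27B by -0.92 ± 0.16, each with a limma adjusted p of 0.0482. RPS19B, for a head protein needed in 40S maturation, had 560.3, 354 and 252 RPKM with inducer at 6, 6.5 and 7 h, against 745, 621 and 408 RPKM with vehicle. RPS16A, whose protein reaches the peptidyl-tRNA site, had 711, 449 and 333 RPKM with inducer, against 968, 773 and 514 RPKM with vehicle. RPS27B, for a zinc-binding platform protein, had 1223, 815 and 686 RPKM with inducer, against 1358, 1011 and 671 RPKM with vehicle. All of these values were lower at each later hour in both treatments.

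At the top of this fit, RPS22B had 0.01 ± 0.16 per hour, RPS10B -0.14 ± 0.26, RPS21A -0.17 ± 0.24, RPS23A -0.37 ± 0.31, RPS26B -0.37 ± 0.22 and RPS28A -0.41 ± 0.20, none passing. Rescaling the libraries moved the split over all ORFs: 40 rose and 16 fell with a common upper quartile, 15 and 1 with quantile normalization, 37 and 20 with trimmed-mean factors and 42 and 17 after centring on the library median, where the values as deposited gave 15 and 25. Under these scalings the family's median lay between -0.66 and -0.64 per hour, and 3, 0, 4 and 2 of its genes passed as lower.

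The steps between hours, which were not tested singly, were uneven in both treatments. With inducer the median step was -0.56 between 6 and 6.5 h (51 of 56 genes lower) and -0.07 between 6.5 and 7 h (34 lower), -0.63 in all. With vehicle it was -0.31 (54 lower) and then -0.62 (56 lower), -0.93 in all. From 6 to 7 h 5 genes were higher with inducer and 0 with vehicle. Large-subunit genes took nearly the same steps, with medians of -0.61 and -0.05 with inducer, against -0.31 and -0.64 with vehicle. Over all ORFs the median steps were -0.11 and 0.005 with inducer, against -0.10 and -0.10 with vehicle.

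**Figure D4:**
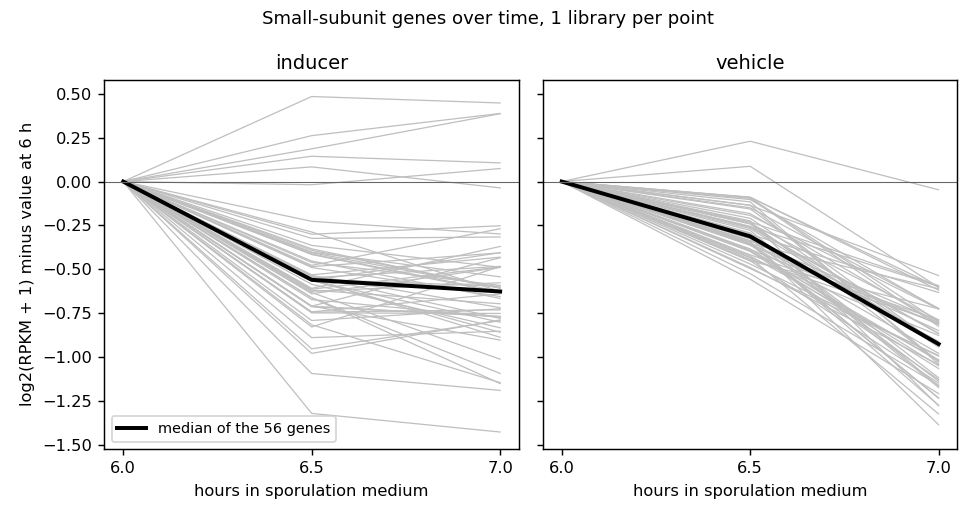
Log2(RPKM + 1) of the 56 genes relative to their own value at 6 h, against hours in sporulation medium, for inducer (left) and vehicle (right), with the median in black and 1 library per point. The inducer median reaches -0.56 at 6.5 h and -0.63 at 7 h; the vehicle median reaches -0.31 and -0.93.

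The test of whether the change per hour differed between treatments passed for 0 of the 56 genes and 0.00% of the 6025 ORFs in limma, with 6 of 56 and 714 of 6025 at an unadjusted p under 0.05. The median interaction (change per hour with inducer minus that with vehicle) of the 56 was 0.28, against 0.07 over all ORFs. RPS23A had the smallest p, with 1.51 ± 0.31 per hour (unadjusted p 0.0011, limma adjusted p 0.167), followed by RPS21A with 1.11 ± 0.29 (0.198), RPS10B with 1.17 ± 0.33 (0.235) and RPS26B with 0.96 ± 0.27 (0.236). RPS2 and RPS28A were the other genes with an unadjusted p under 0.05. Among the lowest estimates were those of RPS29A with -0.38 ± 0.40 and RPS19B with -0.28 ± 0.29. Without the inducer library of 6.5 h RPS23A passed, with 1.51 and a limma adjusted p of 0.0283. In that fit 86 of all ORFs passed as higher and 13 as lower. With any other single library left out RPS23A did not pass (limma adjusted p 0.113 to 0.721).

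Properties of the genes that the selection did not use were set beside the inducer-minus-vehicle change. With an intron in the coding sequence 15 of 36 genes fell and 0 rose (median -0.51), and without 9 of 20 fell and 1 rose (median -0.52). Of genes with at least 90% unique windows 15 of 38 fell and 1 rose (median -0.46), and of the rest 9 of 18 fell (median -0.57). Spearman's rho between the mean level and the change was 0.43 over the 56 genes. The mean level holds the same inducer and vehicle libraries as the change, so level and change are not independent. The letters CCNTACAT, a core of the Rap1 site searched on both strands in the 600 bases before the start codon, were found in 25 of the 56 (44.6%) and in 6.63% of all 6005 such windows. Genes with and without these letters had medians of -0.51 and -0.51, with 10 of 25 and 14 of 31 lower. CAGCGTG, from the first unfolded protein response element, was found in 2 of 56 (3.57%, against 3.03% of all windows) and TACGTG, from the second, in 6 of 56 (10.7%, against 15.1%). RPS10A, RPS23B, RPS21A and RPS21B hold the Rap1 letters, and RPS10B, RPS23A, RPS26A and RPS26B do not. The 3 motifs were searched independently on both strands, and a match is a description of these windows and not a site.

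Genes that work with the family were counted in the same inducer-against-vehicle fit. The shares over all ORFs were 10.0% higher and 8.35% lower. The 82 large-subunit ribosomal protein genes had 35 lower (42.7%) and 1 higher (median -0.52), led by RPL12B with -0.96 ± 0.15 (limma adjusted p 0.00837). Of 43 small subunit processome genes 4 rose (9.30%) and 0 fell (median 0.04), and of 20 late 40S assembly factors PRP43, an RNA helicase, rose (1.16 ± 0.26, limma adjusted p 0.0235) and 0 fell (median -0.03). Of 6 chaperones and escorts of single small-subunit proteins 0 passed in limma (0 also at an unadjusted p under 0.05); TSR2, the escort of Rps26, had -0.01 ± 0.14 (limma adjusted p 0.956). Among 19 regulators of ribosomal protein gene transcription 2 fell (10.5%): CRF1, a corepressor of these genes, fell by 0.51 (SE 0.12, limma adjusted p 0.0319) and YAK1, a kinase upstream of it, fell by 0.50 (SE 0.12, limma adjusted p 0.0331). RAP1 had -0.30 ± 0.13 (limma adjusted p 0.148), IFH1 0.02 ± 0.16 (0.947), SFP1 -0.44 ± 0.15 (0.0806) and HMO1 0.42 ± 0.14 (0.0780), and these did not pass. ASC1, a 40S protein outside the RPS names, had -0.34 ± 0.18 (limma adjusted p 0.218), in a list of 11 such proteins of which 0 passed (2 at an unadjusted p under 0.05). Of 14 initiation partners 1 rose and 1 fell (median -0.20), and of 34 small-subunit proteins of the mitochondrial ribosome 4 rose (11.8%), among them SWS2 (1.02 ± 0.14, limma adjusted p 0.00466), and 1 fell (median -0.05). Over time 11 of the 82 large-subunit genes fell (13.4%). Of the 147 tested genes of the other 7 lists 0 passed in limma over time (30 at an unadjusted p under 0.05). Among all 6025 ORFs 0.415% fell and 0.249% rose over time, with 1335 at an unadjusted p under 0.05.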

How the data were processed

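Per the labels' protocols, poly(A) RNA was made into directional libraries and read as 50 bp single ends. The authors deposited RPKM values per ORF, without counts; the submitters' processing notes name Bowtie2, TopHat and SAMtools, and versions, build, annotation, strand handling and the treatment of reads that fit several places are not stated there. Read numbers were recovered from the spacing of low values. A value times the coding length less 60 bp was a whole multiple of a constant per library: 75.9 to 80.5% of values below 40 reads were whole within 0.02 of a read (9.13 to 11.4% without the offset), and 336 of 336 values of the 56 genes were whole within 0.05. They describe depth (6.02 to 21.7 megareads per library, 95% exact Poisson intervals) and no count test was run.

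Values were analysed as log2(RPKM + 1), which understates changes of low genes, for the 6025 ORFs with a mean of at least 5; all 56 genes passed this filter. limma-trend (limma 3.58.1, R 4.3.3) with Benjamini-Hochberg adjustment over all ORFs and a threshold of 0.05 was fitted with treatment plus hour as a 3-level factor, treatment plus linear hours, and treatment by hours, and again with each pair summed (6001 features). The fits were tested on simulated data. The labelled hour pairs the libraries; deviations from the treatment means correlated at 0.32, 0.00 and 0.11 within hours and at -0.23 to 0.22 between hours. Library correlations lay between 0.925 and 0.987. Shares of copies were compared with an exact permutation test. Alternatives were other pseudocounts, filters, scalings and time terms, no block, and libraries left out.

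Sequences, coding lengths, introns and 50-base windows came from the R64 annotation, which holds 5994 of the 6679 ORF identifiers. The genes and lists were chosen with earlier results of these data known. Full values are given by a rule: 10 genes by smallest p for treatment, 6 for time and 4 for the interaction in each direction, 3 highest and 3 lowest levels, 6 most unequal and 4 most divergent pairs, single-copy genes, and up to 3 genes of other lists. RAP1, IFH1, SFP1, HMO1, TSR2 and ASC1 were named after their values were seen. Values of 7 of the 56 genes are not reported here by name; counts and medians include them.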

Additional observations from a re-analysis of the deposited data

How the results depend on the processing

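For inducer against vehicle, 24 of the 56 genes were lower; 20 to 32 were under other pseudocounts, the 4 scalings, a mean of at least 20 and linear hours, 13 without the intensity trend, and 0 without the filter (30 at an unadjusted p under 0.05). No replicate block gave 0 genes and 0 summed pairs as lower (18 and 5 at an unadjusted p under 0.05), with 145 of all ORFs lower. Leaving out the libraries of an hour gave 0 to 19 genes lower. Of the 24 pairs, 9 were lower as sums and 8 had non-overlapping shares; leaving out an hour gave counts of 0 to 6 and of 10 to 17 (fewer libraries overlap less), and whether these are the same pairs was not counted. For time, 6 genes became 3 with upper quartile scaling, 2 with median centring, and 0 with quantile normalization (46 at an unadjusted p under 0.05), without the filter (45) and for 7 h against 6 h alone (49); leaving out each library gave 0 to 1. For the interaction it gave 0 to 1. The cause of these losses was not tested. RPS26B was lost without the filter (limma adjusted p 0.160) and without the 6.5 or 7 h pair. No result changed sign past the threshold. Depth limits RPS24B and RPS29A among the most, and 2 to 3 residual degrees of freedom limit every call.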

Other observations

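Levels of near-identical copies were also expressed relative to their share of unique sequence, without any new assignment of reads. Divided by their share of unique 50-base windows, the 8 copies under 65% unique had a median of 423 RPKM in place of 180.4 RPKM, with a range of 149 to 756 RPKM, against a median of 664 RPKM for the 26 fully unique genes. Over the 56 genes Spearman's rho between the unique share and the level was 0.15 after this division and 0.44 before it. Dividing by the unique share raises the levels of such copies and pulls this rho down by arithmetic alone. Neither value therefore tests how shared reads were handled. The division was chosen after the levels were seen, applies to all libraries alike and leaves every difference between inducer and vehicle as it was. How the authors treated reads that fit both copies was not tested.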
